A study of Mus musculus with 4 samples.

Results

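The NR4A and EGR immediate-early factors examined here were 6 genes, Nr4a1, Nr4a2, Nr4a3, Egr1, Egr2 and Egr3, of 21883 protein-coding genes in the RefSeq table for mm10. All peaks of both lists whose summit lay in the span of such a gene, or within 20 kb of either end, were taken, a stretch called the gene's window here. The windows held 19 of the 13166 ChIP peaks and 18 of the 15891 CUT&RUN peaks. The series mapped the binding of the transcription factor Runx3 in CD8 T cells of wild-type adult mouse spleen, isolated with magnetic beads against CD8a. The chromatin immunoprecipitation (ChIP) library came from 50000000 frozen cells pooled from 5 mice, captured with a rabbit anti-Runx3 serum. The CUT&RUN library, in which an antibody directs a nuclease to cut DNA beside its target, came from 150000 fresh cells of 1 mouse with the same serum at the same dilution. A whole cell extract served as the ChIP control, and a CUT&RUN library with normal rabbit serum was not analysed here. Each assay had 1 library, so no test was made. Cell number, freezing, the mice and the peak calling differed along with the assay and cannot be told apart from it.

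NR4A proteins are orphan nuclear receptors, and EGR proteins are zinc finger transcription factors. T cell receptor signalling induces both families within minutes to hours, without the need for new protein synthesis, and Nr4a1 (Nur77) is widely used as a reporter of that signal. In T cells the NR4A factors and Egr2 and Egr3 are known for restraining activation and for roles in anergy and exhaustion. Their genes respond to calcium and cyclic AMP signals through sites of the CREB family and to growth signals through the CArG box, the site of serum response factor (SRF). RUNX proteins, with their partner Cbfb, recognise a short motif whose common forms are TGTGGT and TGCGGT.

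Sequence before annotated start sites is shown for the members whose peaks lay at or beside one. RefSeq (GRCm38.p6) start-site sequences covered 4 of the 6 genes, with 1 start each for Nr4a1, Nr4a2 and Nr4a3 and 5 for Egr2. Each long line gives the 250 bases before a start, and each short line 30 bases within such a stretch, 5′ to 3′ on the plus strand. In the Egr2 lines capitals mark a RUNX motif and CArG boxes, the second before later starts, and in the Nr4a1 and Nr4a3 lines they mark the CREB core site TGACG on either strand.
Egr2 chr10:67537316-67537565: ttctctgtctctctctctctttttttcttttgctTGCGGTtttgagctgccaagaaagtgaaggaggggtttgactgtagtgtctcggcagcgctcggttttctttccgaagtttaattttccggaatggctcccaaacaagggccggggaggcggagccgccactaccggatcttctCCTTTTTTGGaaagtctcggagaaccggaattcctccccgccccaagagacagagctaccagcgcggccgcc
Egr2 chr10:67537787-67537816: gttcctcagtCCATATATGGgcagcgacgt
Nr4a1 chr15:101266596-101266845: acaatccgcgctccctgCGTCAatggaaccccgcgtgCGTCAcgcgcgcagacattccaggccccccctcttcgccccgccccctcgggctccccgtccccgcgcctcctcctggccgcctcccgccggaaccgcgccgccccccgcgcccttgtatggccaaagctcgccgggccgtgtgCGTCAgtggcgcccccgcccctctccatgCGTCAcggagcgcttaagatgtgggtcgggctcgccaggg
Nr4a3 chr4:48045083-48045112: gtcccatgtCGTCAcatTGACGtctcgcat

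Runx3 peaks were present at all 6 genes in both assays. Of all protein-coding genes, 46.7% had a ChIP summit in a window drawn the same way, 51.4% had a CUT&RUN summit, and 41.5% had both. Among the 12048 protein-coding genes with spans no shorter and no longer than those of the members, the shares were 51.5% in ChIP, 56.8% in CUT&RUN and 46.0% in both. The members differed widely among themselves. In ChIP, Nr4a3 had 6 peaks, Egr3 had 4, Nr4a1 and Egr1 had 3 each, Egr2 had 2 and Nr4a2 had 1. In CUT&RUN, Egr3 had 6, Nr4a1 had 5, Nr4a3 had 3, Egr2 had 2, and Egr1 and Nr4a2 had 1 each. Of all protein-coding genes, 23.4% had at least 2 ChIP peaks, 11.2% at least 3, 5.51% at least 4, 2.78% at least 5 and 1.43% at least 6. For CUT&RUN the shares were 28.8% for at least 2, 15.3% for 3, 7.94% for 4, 4.0% for 5 and 1.94% for 6. Nr4a3 in ChIP and Egr3 in CUT&RUN thus had peak counts that few genes reached, in windows of 81.4 and 45.3 kb, whereas Nr4a2 stood with any gene that had a peak. The Egr3 counts depended on the 20 kb flank. With 10 kb on each side Egr3 had 3 CUT&RUN peaks and 1 ChIP peak, while Nr4a3 kept 5 ChIP peaks. Among ChIP peaks at q of 1e-05 or less, Nr4a3 had 4 with the 20 kb flank. All members except Nr4a2 had a ChIP peak shared with CUT&RUN, as did 37.6% of protein-coding genes. Other coding genes reached into the windows of all members except Nr4a3: Atg101 and Smim41 at Nr4a1, LOC105244150 at Nr4a2, Reep2 at Egr1, Ado at Egr2, and Pebp4 and Bin3 at Egr3.

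**Figure D1:**
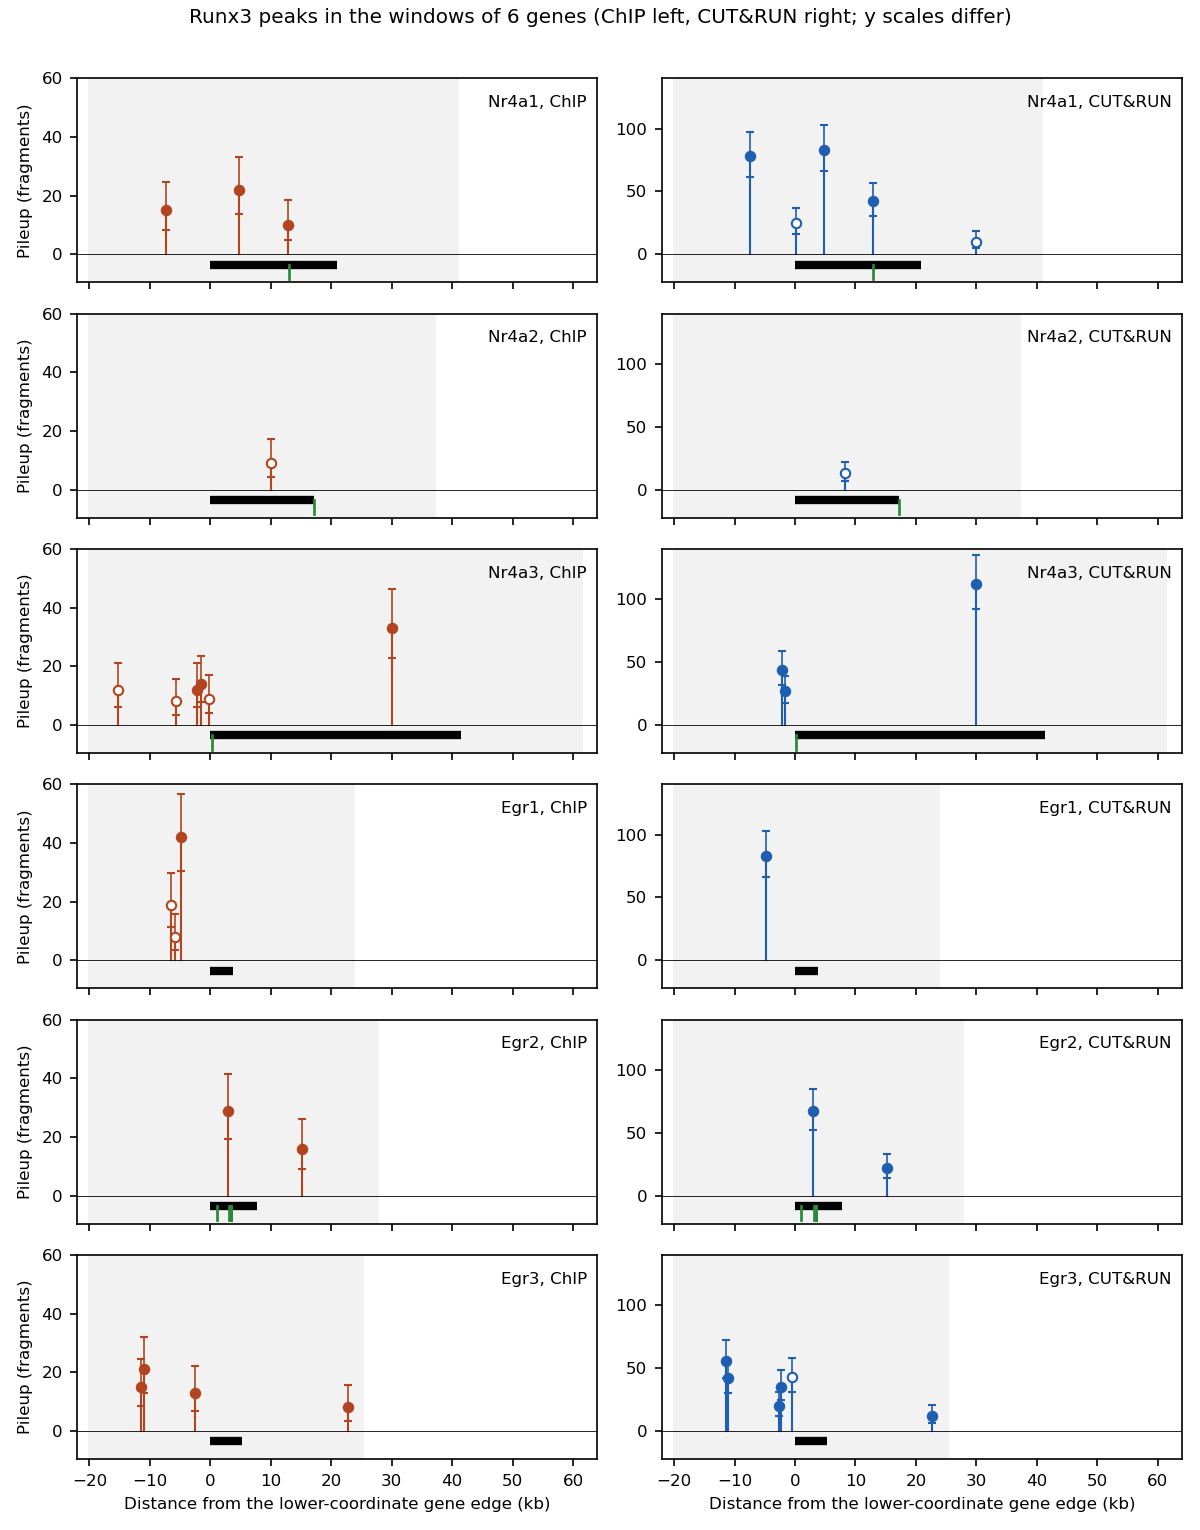
Pileup (fragments over the summit, y axis) of each Runx3 peak against its distance from the lower-coordinate edge of the gene (x axis, kb), with ChIP in the left column and CUT&RUN in the right. Filled points overlap a peak of the other list, open points do not, bars are exact 95% Poisson intervals, grey is the window, black the gene span and green the listed start sites; Nr4a3 shows the highest CUT&RUN peak (112) and Egr1 the highest ChIP peak (42).

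**Figure D2:**
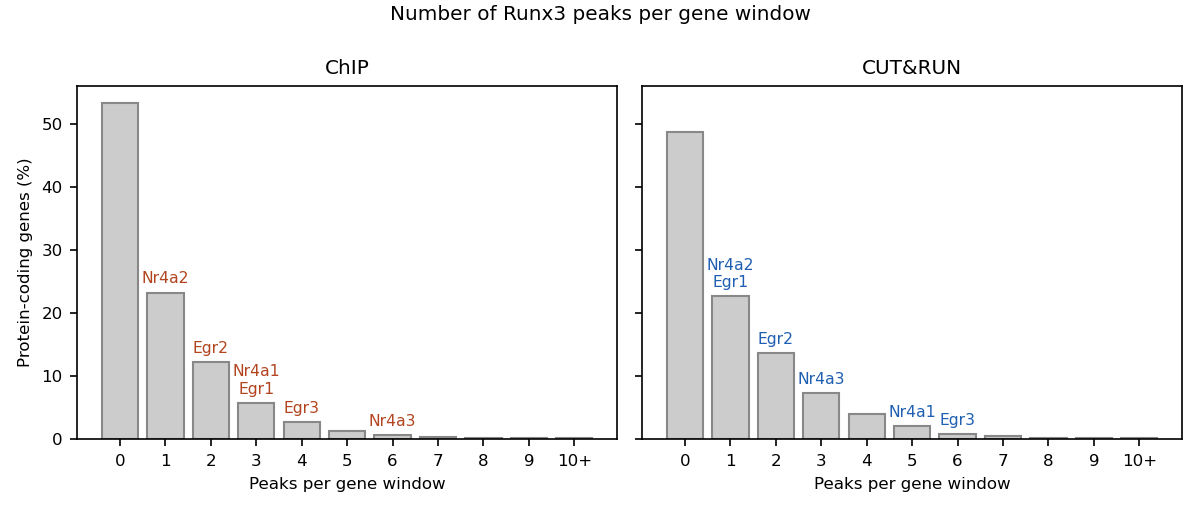
Share of protein-coding genes (y axis, %) by the number of peaks in their window (x axis), for ChIP on the left and CUT&RUN on the right, with the 6 members named above their bar. Nr4a3 lies far right in ChIP with 6 peaks, Egr3 in CUT&RUN with 6, and Nr4a2 has 1 in both.

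Egr2, a zinc finger factor known for limiting T cell activation, had its main peak next to a start site and over a RUNX motif. In ChIP, 29 fragments covered the summit at 67537349 on chromosome 10, a pileup with a 95% interval of 19.4 to 41.6, and the peak stood in the top 5.45% of the list by q. The CUT&RUN summit lay 28 bp away at 67537377, with a pileup of 67 (51.9 to 85.1) in the top 10.7% of its list. Both summits were inside the gene (67534469 to 67542188), 217 and 189 bp before the start at 67537566. The only RUNX motif in that start-site sequence, TGCGGT at 67537350 to 67537355, began 1 bp beyond the ChIP summit and ended 22 bp short of the CUT&RUN summit.

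Of the 8 listed start-site sequences of the members, 1 held a RUNX motif, read as TGTGGT or TGCGGT on either strand, and no match says only that these letters are not within the 250 bases. The motif occurred in 34.6% of the 2675 start-site sequences of the RefSeq table with a ChIP summit, in 25.9% of the 4008 with a CUT&RUN summit, and in 18.6% of all 32851. The same Egr2 sequence had a CArG box, CCTTTTTTGG, at 67537494 to 67537503, and the sequence before the start at 67537869 had another, CCATATATGG, at 67537797 to 67537806. CArG boxes occurred in 1.47% of all start-site sequences. The second box lay 448 bp from the ChIP summit and 420 bp from the CUT&RUN summit, outside both peaks.

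A second pair of Egr2 peaks lay beyond the neighbouring gene Ado, which encodes a thiol dioxygenase. The ChIP summit at 67549623 (pileup 16, 9.15 to 26.0) and the CUT&RUN summit at 67549632 (pileup 22, 13.8 to 33.3) were 9 bp apart. They lay 7.43 and 7.44 kb from the Egr2 span but 0.668 and 0.677 kb before the listed start of Ado, so they were nearer to Ado.

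Egr1 carried the strongest ChIP peak of the 6 genes. It encodes the founding EGR factor, and its annotated span (chromosome 18, 34861207 to 34864956) held no summit of either list. The ChIP summit at 34856379, 4.83 kb below the span, reached a pileup of 42 (30.3 to 56.8), rank 184 of 13166. CUT&RUN had its single Egr1 peak 32 bp away at 34856411, with a pileup of 83 (66.1 to 103) and a rank of 1283 of 15891 by q. By fold enrichment this peak stood at 18.6% of the CUT&RUN list, against 8.07% by q.

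ChIP listed 2 further Egr1 peaks below the main one, the nearer 1.03 kb away and the other 0.700 kb further. These summits, at 34854644 (pileup 19, 11.4 to 29.7) and 34855344 (pileup 8, 3.45 to 15.8), had no overlapping CUT&RUN peak. The first of them stood in the top 18.0% of the ChIP list, the highest rank of any ChIP peak in the 6 windows without a CUT&RUN partner.

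Egr3, which acts alongside Egr2 in T cells, had peaks on both sides of its short span (chromosome 14, 70077317 to 70082613) and none inside it. The highest-ranked Egr3 peak of each assay belonged to a pair about 11 kb below the span. In ChIP the pair had summits at 70065820 (pileup 15, 8.40 to 24.7) and 70066270 (pileup 21, 13.0 to 32.1), 450 bp apart. In CUT&RUN it had summits at 70065905 (pileup 56, 42.3 to 72.7) and 70066308 (pileup 42, 30.3 to 56.8), 403 bp apart. The higher of the pair was the upper one in ChIP and the lower one in CUT&RUN, and the intervals of the pair overlapped within each assay. These summits were nearer to Pebp4, whose span ends 5.90 to 6.39 kb away, than to Egr3.

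Closer to the gene, a ChIP peak at 70074726 (pileup 13, 6.92 to 22.2) faced a pair of CUT&RUN peaks at 70074679 (pileup 20, 12.2 to 30.9) and 70074929 (pileup 35, 24.4 to 48.7). CUT&RUN alone had a peak 0.501 kb below the span, at 70076816 (pileup 43, 31.1 to 57.9), in the top 29.6% of its list. It was the strongest of the 4 CUT&RUN peaks in the 6 windows without a ChIP partner. The remaining pair lay 17.4 kb above the gene, close to the 20 kb limit. Its ChIP summit at 70100013 (pileup 8, 3.45 to 15.8) and CUT&RUN summit at 70100027 (pileup 12, 6.20 to 21.0) were 0.076 and 0.062 kb from an edge of Bin3, a gene of the BAR domain family.

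Nr4a3, the gene of Nor1, had the strongest CUT&RUN peak of the 6 and the closest match between assays. Deep in the gene (chromosome 4, 48045078 to 48086447), 29.7 kb after its listed start, the ChIP summit at 48075036 and the CUT&RUN summit at 48075034 lay 2 bp apart. The pileup reached 33 (22.7 to 46.3) in ChIP, within the top 3.70% of peaks, and 112 (92.2 to 135) in CUT&RUN, within the top 1.86%.

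The other Nr4a3 peaks clustered before the gene. ChIP had summits at 48042937 (pileup 12, 6.20 to 21.0) and 48043463 (pileup 14, 7.65 to 23.5), 526 bp apart, and CUT&RUN matched both at 48042870 (pileup 44, 32.0 to 59.1) and 48043498 (pileup 27, 17.8 to 39.3). ChIP alone had peaks at 48029792, 48039373 and 48044873, with pileups of 12, 8 and 9, the best of them at 48.5% of the ChIP list. The last of these ended 24 bp before the 250-base start-site sequence of Nr4a3, from which the printed stretch comes, and no peak overlapped that sequence.

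Nr4a1, the gene of Nur77, had 3 peaks in both assays and 2 more in CUT&RUN. Its RefSeq span (chromosome 15, 101253902 to 101274795) begins well before the listed start at 101266846. The highest peak of each assay lay inside the span, 8.28 kb before that start in ChIP (101258565, pileup 22, 13.8 to 33.3) and 8.21 kb before it in CUT&RUN (101258637, pileup 83, 66.1 to 103). Another pair lay 20.3 kb before the start. Its ChIP summit at 101246559 reached 15 fragments (8.40 to 24.7), and its CUT&RUN summit at 101246514 reached 78 (61.7 to 97.3), in the top 7.75%.

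The Nr4a1 start site itself was covered in both assays. The ChIP summit at 101266840 (pileup 10, 4.80 to 18.4) lay 6 bp before the start and the CUT&RUN summit at 101266798 (pileup 42, 30.3 to 56.8) lay 48 bp before it. The CUT&RUN peak covered 248 of the 250 printed bases and the ChIP peak 139 of them. Of the 8 start-site sequences of the members, those of Nr4a1 and of Egr2 at 67537566 held a summit of both assays. Of all start-site sequences in the RefSeq table, 8.14% held a ChIP summit and 12.2% a CUT&RUN summit.

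The Nr4a1 start-site sequence had 4 CREB core sites, the nearest of them 8 bp from the CUT&RUN summit and 30 bp from the ChIP summit. It also held a site of the EGR form GCGGGGGCG on the minus strand, which reads CGCCCCCGC on the plus strand, at 101266786 to 101266794, 4 bp from the CUT&RUN summit; an EGR site of this form or GCGTGGGCG occurred in 3.06% of all start-site sequences. The sequences of Nr4a2 and Nr4a3 also had 4 CREB core sites each, a number reached by 0.137% of all start-site sequences (45 of 32851), whereas 17.8% had at least 1. This count was picked after the matches were seen. No start-site sequence of the NR4A genes held a RUNX motif, an AP-1 motif (TGANTCA) or the NR4A site AAAGGTCA.

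The CUT&RUN peaks of Nr4a1 without a ChIP partner ranked low. The lower lay 0.129 kb inside the lower edge of the span at 101254031 (pileup 25, 16.2 to 36.9), and the other lay 0.370 kb before the start of Atg101, an autophagy gene, at 101283931 (pileup 10, 4.80 to 18.4). They stood at 90.6% and 96.9% of the CUT&RUN list, near its weak end.

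Nr4a2, the gene of Nurr1, stood apart from the other members. On chromosome 2, its ChIP summit at 57116912 was covered by 9 fragments (4.12 to 17.1), at 77.7% of the list, and its CUT&RUN summit at 57115046 by 13 (6.92 to 22.2), at 90.7%. Both lay inside the gene (57106830 to 57124003), 7.09 and 8.96 kb after its start, and they did not overlap each other. It was the only member without a peak shared between the lists. In the stronger 50% of either list, and among ChIP peaks at q of 1e-05 or less, Nr4a2 had no peak.

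**Figure D3:**
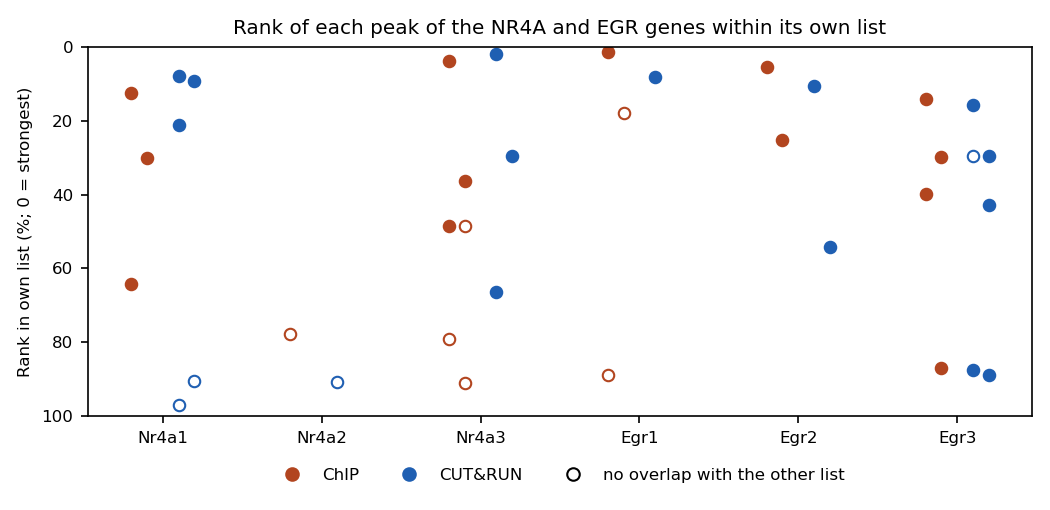
Rank of each member peak within its own list, as a percent of the list (y axis, 0 strongest), by gene (x axis), ChIP in red left of CUT&RUN in blue, open where no peak of the other list overlaps. Egr1 at 1.40% leads in ChIP and Nr4a3 at 1.86% in CUT&RUN, while the Nr4a2 peaks stand near the weak end, at 77.7% and 90.7%.

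Across the 6 genes, 13 of the 19 ChIP peaks overlapped a CUT&RUN peak (68.4%, 95% interval 43.4 to 87.4), near the 66.2% of the whole ChIP list. Of the 18 CUT&RUN peaks, 14 overlapped a ChIP peak (77.8%, 52.4 to 93.6), and the interval includes the 58.8% of the whole list. The pairs numbered 14, since a single ChIP peak of Egr3 met 2 CUT&RUN peaks, and their summits lay a median of 40 bp apart (range 2 to 203 bp), against 39 bp over all 9358 pairs of the lists. Unshared member peaks were lower, with a median pileup of 9 in ChIP (6 peaks) and 19 in CUT&RUN (4 peaks), against 15 (13 peaks) and 43 (14 peaks) where shared. Pileups were not compared between assays.

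Most member peaks lay away from gene edges, meaning the outer ends of gene spans. Within 1 kb of either edge of any annotated gene were 3 of the 19 ChIP summits (15.8%, 3.38 to 39.6), against 42.2% of the 13079 ChIP summits on chromosomes of the table, and 5 of the 18 CUT&RUN summits (27.8%, 9.69 to 53.5), against 42.4% of 15726. The CUT&RUN interval includes the share of the whole list. The windows were chosen for these genes and extend 20 kb beyond them, which sets how far from an edge a summit can lie. Outside the member's own span were 14 of the 19 ChIP and 12 of the 18 CUT&RUN summits. The member was the nearest coding gene for 15 ChIP and 13 CUT&RUN summits, and Ado, Atg101, Bin3 or Pebp4 for the rest.

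The expected background that the peak caller set against each peak differed between the assays. It was recovered as the pileup plus 1, divided by the fold enrichment, minus 1. In ChIP it was 1.12 fragments at all 19 member peaks, the median of the list, so ChIP folds (4.24 to 20.2) followed the pileup. In CUT&RUN, where the file headers name a region of 10 kb for the local background, it ranged from 0.473 to 3.71 fragments with a median of 2.08, against 0.894 over the whole list. It was highest at Nr4a1 (3.71 and 3.62 at the peaks at 101254031 and 101258637) and Egr1 (3.18), and lowest at the Bin3 edge (0.473, also the lowest of the whole list) and before Atg101 (0.478). A pileup of 25 in Nr4a1 therefore gave a fold of 5.52, and a pileup of 12 at the Bin3 edge gave 8.82.

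Genes most like each member were named by 4 values from the 2 libraries, the number of peaks and the highest pileup in each assay, on a log2 scale after adding 1, leaving out genes that share a peak with the member. Nr4a1 was nearest to Pdcd1lg2 (3 ChIP and 5 CUT&RUN peaks, highest pileups 21 and 85) and Foxo1 (3 and 5, 24 and 80). Nr4a3 was nearest to Chrna9 (6 and 3, 32 and 112) and Cdkn1b (5 and 3, 32 and 101). Egr1 was nearest to Ncf1 (3 and 1, 36 and 84) and to the nuclear receptor gene Nr1h2 (2 and 1, 42 and 79), tied with 1 other gene. Egr2 was nearest to Heatr5b (2 and 2, 27 and 67) and Ccer2 (2 and 2, 31 and 65), and Egr3 to Ccdc162 (4 and 6, 19 and 58). Nr4a2 shared its values exactly with 17 other genes. That count did not leave out genes sharing its peaks, such as LOC105244150. Of the rest, Asdurf and Asnsd1 came first by name, so the Nr4a2 pattern singles out no gene.

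Among 15 partners and regulators of these factors, 11 had a ChIP peak and 10 a CUT&RUN peak, with 9 in both. The shares were 73.3% in ChIP and 66.7% in CUT&RUN, against 46.7% and 51.4% of all protein-coding genes. The genes of each list named below are the 4 with the best rank in either assay. By that rule these were Creb1, which encodes the CREB factor (top 2.43% of the ChIP list and 4.68% of the CUT&RUN list), and Mef2d, a calcium-responsive factor that acts on Nr4a1 (3.67% and 43.0%). Nab2, an EGR corepressor (28.9% and 4.32%), and Elk4, an SRF partner (8.49% and 20.5%). Hdac7, a histone deacetylase that binds MEF2 factors, stood higher than Mef2d and Nab2 in the weaker of its ranks (8.81% and 11.1%). Egr4, Rxrg and Mef2c had no peak in either list.

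Like the 6 members, all 21 other immediate-early genes had peaks in both assays, against 41.5% of all protein-coding genes. The members had a median of 3 ChIP peaks and 2.5 CUT&RUN peaks per gene, the other immediate-early genes 3 in each assay, and all protein-coding genes 0 and 1. Dusp2 (top 3.02% and 17.1%) and Dusp5 (3.27% and 3.37%), phosphatases of MAP kinases, were named by rank, with Fos (10.8% and 5.83%) and Jund (6.65% and 39.4%), which encode AP-1 subunits. Btg2, an antiproliferative gene, was not among the 4 but stood at 9.48% and 11.2%. Gene expression was not measured here.

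Of 13 genes of anergy and exhaustion tied to NR4A or EGR factors, 11 had a peak in each assay (84.6%, against 46.7% in ChIP and 51.4% in CUT&RUN over all protein-coding genes) and 10 in both. Dgka, a diacylglycerol kinase that dampens receptor signalling, stood in the top 0.258% of the ChIP list and 1.2% of the CUT&RUN list, and Cblb, a ubiquitin ligase that limits activation, in the top 0.524% and 2.81%. Havcr2, the gene of the inhibitory receptor TIM-3 (9.60% and 4.54%), and Nfatc1 (8.91% and 9.0%) followed. Itch had a peak in ChIP alone, Irf4 in CUT&RUN alone, and Rnf128 in neither.

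All 15 other nuclear receptor genes had a ChIP peak, and all but Nr2c1 had a CUT&RUN peak. The shares were 100% and 93.3%, against 46.7% and 51.4% of all protein-coding genes. Nr1d1 and Thra had the same best CUT&RUN peak (rank 3638), so the genes are not all separate cases. Rara (1.24% and 9.48%), Nr1h2 (1.44% and 6.67%), Rora (6.68% and 1.82%) and Vdr (8.81% and 11.1%) were named by rank; Vdr shared its best peaks with its neighbour Hdac7. As a check of the labelled cell type, Cd8a, Cd8b1 and Cd3e had peaks in both assays, as did the B cell gene Cd79a, while Ms4a1, Lyz2, Csf1r and Adgre1 had none in either; peaks mark binding and not expression, and other cells in the preparation were not tested for.

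**Figure D4:**
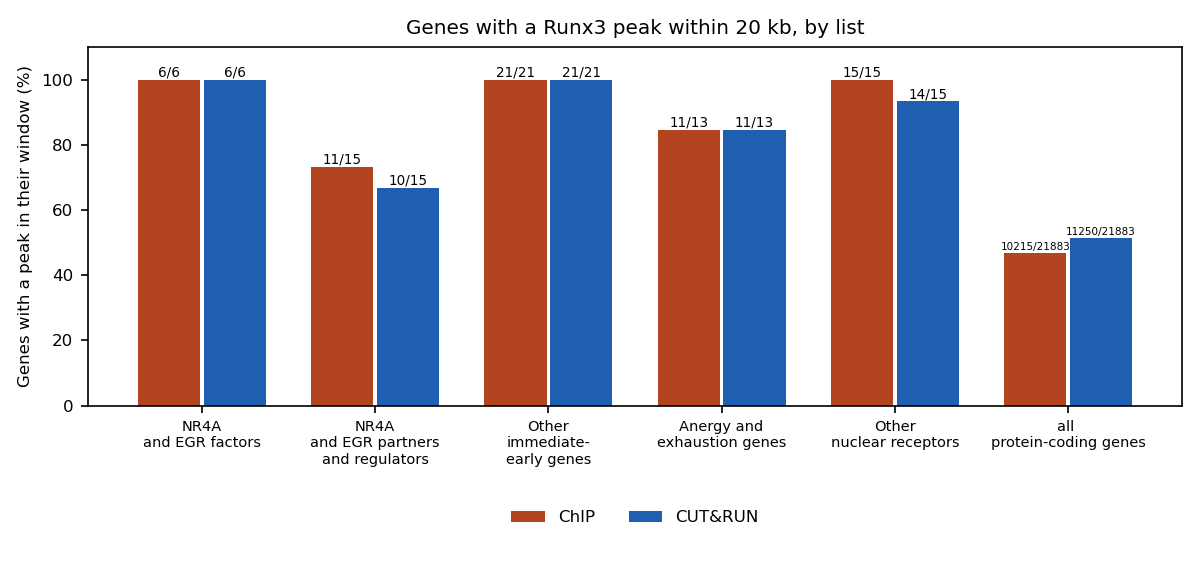
Share of genes with at least 1 peak in their window (y axis, %), by gene list (x axis), ChIP in red left of CUT&RUN in blue, with the counts above the bars. The NR4A and EGR factors (6 of 6) and the other immediate-early genes (21 of 21) are fully occupied in both assays, against 46.7% and 51.4% of all protein-coding genes.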

How the data were processed

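Peak lists were available for 2 of the 4 libraries, anti-Runx3 ChIP and anti-Runx3 CUT&RUN, with 12 PCR cycles each per the labels' protocols. The authors used Bowtie, mm10 and MACS2, per the submitters' processing notes; per the file headers the caller was MACS2 2.1.1.20160309, run on each library alone, with at most 1 fragment kept per position. ChIP peaks had a q threshold of 0.05 with the whole cell extract as control, and CUT&RUN peaks 1e-05 without one, from an alignment whose name refers to nucleosome-free fragments. Of 48285251 ChIP fragments 9532996 were left after duplicate removal, and of 17896991 CUT&RUN fragments 14068364.

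The deposited lists give a pileup signal (fragments over the summit), −log10 p and q values, a fold enrichment ratio over expected background and other values such as peak width; all are the authors'. Peaks were ranked within a list by q, then pileup. Shared peaks overlapped by at least 1 bp (checked with bedtools 2.31.1). Pileups have exact 95% Poisson intervals and shares exact 95% Clopper-Pearson intervals (scipy 1.17.1), covering counting error only. Gene spans and start-site sequences came from RefSeq, GRCm38.p6; peak sequences were not used here, so the planned motif search at summits was made in start-site sequences. Window and overlap counts were tested on simulated data. Members and lists were chosen with earlier results of these data known. Genes named were the members, coding genes in their windows or nearest to their peaks, the 4 best ranked and the unoccupied genes of each list, and the 2 genes most like each member; some of these are not reported here. Alternative windows, thresholds, overlaps and ranks were tried.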

Additional observations from a re-analysis of the deposited data

How the results depend on the processing

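All 6 members had a peak in each assay with windows of 10 kb and 50 kb, and 5 did in the stronger 50% of each list. With gene spans alone 4 members kept a peak in each assay (Egr1 and Egr3 had none), the peaks numbered 5 in ChIP and 6 in CUT&RUN, and the genes of the 4 lists with a peak were 33 and 32, against 58 and 56 with 20 kb. The share of all protein-coding genes with a peak was then 22.4% in ChIP and 24.0% in CUT&RUN; it was 40.2% and 45.1% with 10 kb, 58.9% and 62.4% with 50 kb, 31.2% and 34.2% with the stronger 50% of each list, and 35.2% in ChIP once its q threshold was 1e-05. Among genes with no other coding gene in their window it was 25.7% and 27.7%; of the members only Nr4a3 qualified, so the count was 1 in each assay. Among genes of member-like span, an alternative chosen after seeing the data, it was 51.5% and 56.8%. The stronger 50% of the lists left 11 CUT&RUN peaks in the windows, 9 of them shared. Ranked by fold enrichment, 1 member (Nr4a3) had a CUT&RUN peak in the top 10%, against 3 by q; in ChIP there were 3 either way. Shared peaks numbered 10 to 13 in each assay under reciprocal overlap of 50% or summits within 50 or 200 bp. The search around peak summits for RUNX motifs was not run. No paired analysis was possible because each assay had 1 library. Pileups below about 10 fragments have intervals from under 5 to over 15, so the order of the weakest peaks is not resolved at this depth.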

Other observations

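Further peaks lay between 20 and 50 kb from the members. The highest-ranked in ChIP was just outside the Egr3 window, 20.2 kb below the gene and inside Pebp4, with a ChIP summit at chromosome 14, 70057149 (pileup 34, top 3.21% of the list) and a CUT&RUN summit at 70057124 (pileup 60, top 9.84%). Both ranked higher than any peak inside the Egr3 window. About 33.3 kb below Egr1, inside the histone demethylase gene Kdm3b, the summits at 34827868 in ChIP (pileup 9) and 34827861 in CUT&RUN (pileup 60) lay 7 bp apart, but stood at 76.8% of the ChIP list and 8.31% of the CUT&RUN list.

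Nr4a3, the nearest coding gene, had another shared pair 32.6 kb before its span, at 48012494 in ChIP (pileup 14) and 48012487 in CUT&RUN (pileup 47), also 7 bp apart. Beyond Egr2 a pair lay 44.2 kb from the span, at 67586367 in ChIP (pileup 14) and 67586346 in CUT&RUN (pileup 35). CUT&RUN alone had peaks nearest to Reep2, 0.042 kb from its edge and 20.7 kb from Egr1 (pileup 17), in Kdm3b at 34827387 (pileup 15), and 39.9 kb beyond Egr2 (pileup 26). ChIP alone had a peak nearest to Grasp, 31.9 kb below Nr4a1 (pileup 10). No peak of either list lay between 20 and 50 kb from Nr4a2.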
